A study of Mus musculus with 84 samples.

Results

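C57BL6/J is the inbred strain behind the mouse reference genome and the usual control strain in mouse work. Its liver transcriptome without dioxin was set here against the equal-weight mean of 9 other inbred strains. The series as a whole holds 84 liver libraries from 14 strains, 42 of them from mice given the dioxin TCDD (2,3,7,8-tetrachlorodibenzo-p-dioxin) and 42 from mice given vehicle. The members of this comparison were chosen by label: the 3 vehicle libraries of C57BL6/J, 2 of A/J, and 3 each of 129S1/SVIMJ, NOD/SHILTJ, FVB/NJ, BALB/CJ, CBA/J, NZO/HILTJ, DBA1/J and C3HeB/FeJ, 29 libraries in all. All 29 came from whole frozen liver of pregnant females, which ate peanut butter without TCDD (0 µg/kg per day) daily for 10 days and were 6 to 8 weeks old at the start, per the labels. The labels name no engineered allele in any of them, and the genotypes are those of the inbred strains. A vehicle library of A/J, numbered replicate 2 here, was left out because markers of other tissues stood far above the rest in it (muscle 3209 CPM, adrenal 637 CPM and pancreas 480.0 CPM, as sums over lists; CPM are counts per 1000000 reads assigned to genes). Dosing began when a plug was found, and the labels give neither a fetal count nor the father's strain.

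The liver makes most plasma proteins, clears drugs and hormones through cytochrome P450 enzymes and conjugating enzymes, and supplies lipids to the body. Inbred strains are each homozygous, so a strain that carries a deleted, truncated or duplicated copy of a gene shows it in every animal. Several such alleles are textbook features of C57BL/6J, among them a deletion inside Nnt, the mitochondrial transhydrogenase that makes NADPH, and near-absence of Ifi202b, an interferon-inducible gene of the p200 family.

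The 3 C57BL6/J libraries held 15610932, 18330836 and 16813497 reads in genes, and the other 26 held 13232749 to 19581077. Reads with several alignments were 9.23% to 9.40% in C57BL6/J and 7.97% to 9.92% in the others. Hepatocyte markers, such as Alb and Hnf4a, summed to 99046 to 108439 CPM in C57BL6/J and to 75936 to 112534 CPM in the others; Serpina1a, a hepatocyte marker called higher, is described with its gene cluster. Per the names of the deposited files, reads of C57BL6/J were placed on the standard reference and those of the other inbred strains on references of their own strain (for DBA1/J and C3HeB/FeJ, of a related strain), so a difference in reference moves with every C57BL6/J difference below; its part was not tested. In whole liver, fewer cells of a type and less RNA per cell cannot be told apart. Nothing in the labels says how animals of a group relate, and a p-value here weighs a difference against the scatter among libraries, which may be technical. Per-library values below are in replicate order for C57BL6/J, and as lowest, median and highest for the other 26 libraries; errors on log2 fold changes are standard errors, with edgeR's quasi-likelihood test and Benjamini-Hochberg adjustment over 15819 genes. The log2 fold change averages the strains' log levels with equal weight, while a ratio of means compares the mean CPM.

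Against the mean of the 9 strains, 1438 of 15819 tested genes were called at an adjusted p below 0.05, 884 higher and 554 lower in C57BL6/J. That is 9.09% of tested genes, 5.59% higher and 3.5% lower, and the median gene differed by 0.01 on the log2 scale. Without C57BL6/J replicate 1 the count was 761, without replicate 3 it was 864 and without replicate 2 it was 1249. Genes called by at least 2-fold numbered 437 higher and 230 lower. The 3 C57BL6/J libraries lay above all 26 others at 0.771% of tested genes, of which 118 were called, and below all 26 at 0.436%, of which 67 were called. With the same contrast for every other strain against its own remaining 9, the called share was 5% for A/J, 5.63% for DBA1/J, 5.71% for FVB/NJ, 5.8% for C3HeB/FeJ, 7% for BALB/CJ, 8.1% for 129S1/SVIMJ, 11.6% for NZO/HILTJ, 13.1% for NOD/SHILTJ and 16.1% for CBA/J. The share of C57BL6/J thus lay between those of 129S1/SVIMJ and NZO/HILTJ. No test of that order was made.

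Taken one strain at a time, the same fit called 4.38% of genes between C57BL6/J and A/J, 6.62% for DBA1/J, 7.43% for NZO/HILTJ, 7.64% for 129S1/SVIMJ, 7.88% for FVB/NJ, 8.93% for BALB/CJ, 9.17% for C3HeB/FeJ, 9.91% for NOD/SHILTJ and 9.99% for CBA/J. These 9 comparisons share the C57BL6/J libraries, and A/J has 2 libraries where the others have 3. CBA/J was the pair with the most genes lower in C57BL6/J, 959 against 621 higher, and NOD/SHILTJ the pair with the most higher, 861 against 707 lower. The plot of calls by strain shows both directions. Of the 1438 genes called against the mean, 22 were called in no single pair, and 45 were called in the opposite direction in at least 1 pair. Counted pair by pair, 65 genes were called in the same direction in each of the 9 pairs, 38 higher (0.24% of tested genes) and 27 lower (0.171%).

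**Figure D1:**
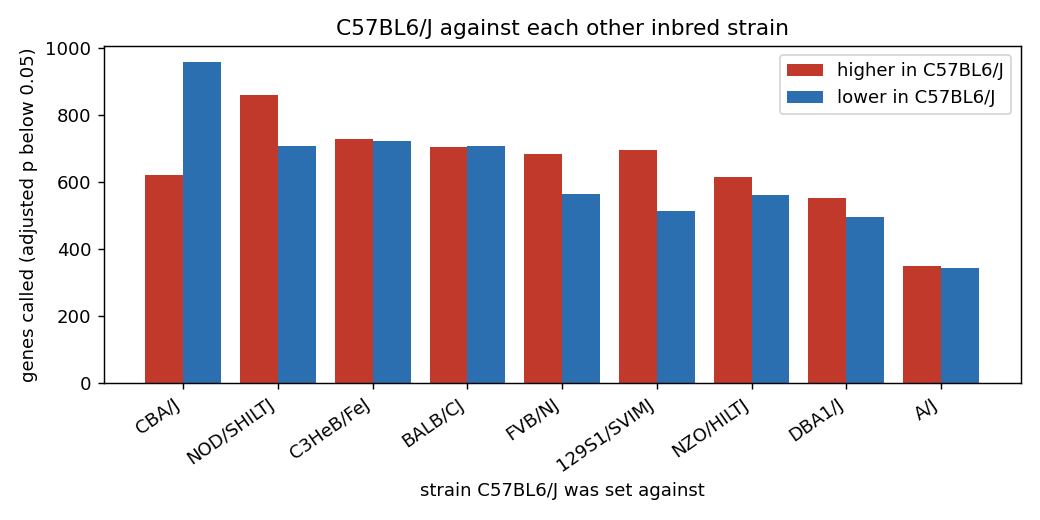
Number of genes called (vertical axis; edgeR, adjusted p below 0.05) for C57BL6/J against each other inbred strain, with genes higher in C57BL6/J in red and genes lower in C57BL6/J in blue. Genes lower in C57BL6/J outnumbered those higher most against CBA/J, where 959 were lower and 621 higher.

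The 65 genes at which C57BL6/J stood apart from each of the 9 strains are described first, beginning with enzymes that were lower in it. Cyp2c39 (ENSMUSG00000025003), a cytochrome P450 of the Cyp2c cluster known in mice to hydroxylate retinoic acid, had 6.41, 3.60 and 7.08 CPM in C57BL6/J, against 87.4, 319 and 447 CPM in the other 26 libraries. All 3 C57BL6/J libraries lay far below the lowest other library (log2 fold change −5.61 ± 0.24, adjusted p = 1.67e-15). Nnt, the NADPH-making transhydrogenase, had 81.1, 83.2 and 80.9 CPM in C57BL6/J, against 134.1, 215 and 266 CPM in the other 26 libraries (log2 fold change −1.36 ± 0.16, adjusted p = 5.13e-07). The groups did not overlap, and the C57BL6/J mean was 0.388 times the mean of the 9. Tpmt, which methylates thiopurine drugs, had 11.3, 7.47 and 12.9 CPM in C57BL6/J, against 29.6, 42.2 and 64.6 CPM in the other 26 libraries (log2 fold change −2.09 ± 0.15, adjusted p = 3.35e-11). Tymp, thymidine phosphorylase, had 34.5, 33.7 and 40.2 CPM in C57BL6/J, against 83.5, 127.6 and 261 CPM in the other 26 libraries (log2 fold change −1.84 ± 0.26, adjusted p = 1.30e-05). Every C57BL6/J library lay below every other library at both genes. Hddc3, a metal-dependent phosphohydrolase, had 1.92, 0.873 and 1.25 CPM in C57BL6/J, against 12.8, 17.0 and 28.9 CPM in the other 26 libraries (log2 fold change −3.74 ± 0.22, adjusted p = 1.07e-12). Ces1b, a carboxylesterase, had 40.8, 50.8 and 59.4 CPM in C57BL6/J, against 68.2, 112 and 141.9 CPM in the other 26 libraries (log2 fold change −1.06 ± 0.13, adjusted p = 2.03e-06). These calls held with each of the 29 libraries left out in turn.

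Transporters and signalling genes were also among the 27 lower genes. Abca3, a phospholipid transporter best known from lung surfactant, had 185, 238 and 169 CPM in C57BL6/J, against 375, 478 and 719 CPM in the other 26 libraries (log2 fold change −1.34 ± 0.19, adjusted p = 1.17e-05). Slc40a1, ferroportin, the cell's iron exporter, had 114, 95.4 and 101 CPM in C57BL6/J, against 79.1, 188 and 398 CPM in the other 26 libraries; single libraries overlapped although each pair was called (log2 fold change −0.97 ± 0.15, adjusted p = 6.07e-05). Pik3c2g, a class II phosphoinositide 3-kinase, had 1.79, 1.25 and 2.14 CPM in C57BL6/J, against 2.15, 9.33 and 17.0 CPM in the other 26 libraries (log2 fold change −2.36 ± 0.32, adjusted p = 6.55e-06). Atp8b5, a phospholipid flippase of the P4 family, had 0.384, 1.20 and 1.07 CPM in C57BL6/J, against 2.37, 4.68 and 8.82 CPM in the other 26 libraries (log2 fold change −2.35 ± 0.31, adjusted p = 4.02e-06). At Pik3c2g and Atp8b5 all 3 C57BL6/J libraries lay below every other. Wdfy1, a protein with WD and FYVE domains, had 10.3, 7.91 and 15.1 CPM in C57BL6/J, against 15.7, 23.4 and 29.5 CPM in the other 26 libraries (log2 fold change −1.08 ± 0.14, adjusted p = 4.74e-06). Prelid2, Erp27 and Nsun7 were lower as well, with log2 fold changes of −2.27, −3.67 and −3.51 and no overlap between libraries.

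A few genes were at or near 0 counts in C57BL6/J. Ifi202b had 1 count over the 3 C57BL6/J libraries, against 0.421, 1.90 and 7.50 CPM in the other 26 libraries, and its mean over the 9 strains was 119 times that of C57BL6/J (exact Poisson interval of the single count, at 95%, 21.4 to 4705). Nuggc, a nuclear GTPase known from germinal center B cells, had 0 counts in C57BL6/J and 0.314, 1.34 and 4.66 CPM in the others. With a floor of 3 counts over the group, it was at least 26.6-fold lower. Pde6h, the inhibitory subunit of the cone photoreceptor phosphodiesterase, likewise had 0 counts in C57BL6/J and 0.106, 1.30 and 2.91 CPM in the others, at least 21.7-fold lower. Col6a5, a collagen VI chain, had 2 counts in C57BL6/J, and its mean over the 9 strains was 57.1 times higher (95% interval 15.8 to 472); it was lower than 8 of the 9 strains. These are low-level transcripts in liver, and the intervals cover counting error only.

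The 38 genes higher in C57BL6/J than in each of the 9 strains included abundant liver enzymes. Adh1, the main hepatic alcohol dehydrogenase, had 3912, 4103 and 3599 CPM in C57BL6/J, against 1407, 1986 and 2619 CPM in the other 26 libraries (log2 fold change 0.94 ± 0.14, adjusted p = 3.42e-05). Sord, sorbitol dehydrogenase of the polyol pathway, had 1128, 1139 and 1229 CPM in C57BL6/J, against 425, 604 and 731 CPM in the other 26 libraries (log2 fold change 0.98 ± 0.12, adjusted p = 1.55e-06). No library overlapped at either gene, and the ratios of means were 1.91 for Adh1 and 1.97 for Sord. Chp1, a calcium-binding regulator of sodium-proton exchangers, had 376, 359 and 349 CPM in C57BL6/J, against 89.0, 171.2 and 245 CPM in the other 26 libraries (log2 fold change 1.12 ± 0.11, adjusted p = 4.72e-08). Pck2, the mitochondrial phosphoenolpyruvate carboxykinase, had 10.8, 12.9 and 8.03 CPM in C57BL6/J, against 2.88, 4.75 and 7.12 CPM in the other 26 libraries (log2 fold change 1.28 ± 0.18, adjusted p = 8.99e-06). Guk1, guanylate kinase, had 36.7, 45.6 and 37.3 CPM in C57BL6/J, against 14.8, 20.1 and 27.3 CPM in the other 26 libraries (log2 fold change 0.97 ± 0.11, adjusted p = 3.34e-07). Ide, the insulin-degrading enzyme, had 121, 82.5 and 144.9 CPM in C57BL6/J, against 22.1, 57.1 and 84.1 CPM in the other 26 libraries (log2 fold change 1.05 ± 0.15, adjusted p = 1.28e-05); replicate 2 of C57BL6/J lay within the range of the others. Ppp1r3e, a glycogen-targeting subunit of protein phosphatase 1, and Habp4, a hyaluronan-binding protein, were higher by 1.77 and 1.02 on the log2 scale.

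Others of the 38 encode plasma, signalling and regulatory proteins. Mug2, a murinoglobulin, which is a plasma protease inhibitor of the alpha-2-macroglobulin family, had 51.2, 67.2 and 59.2 CPM in C57BL6/J, against 0.870, 3.98 and 13.6 CPM in the other 26 libraries (log2 fold change 3.67 ± 0.34, adjusted p = 2.09e-08). A2ml1, another member of that family, had 12.6, 10.9 and 6.78 CPM in C57BL6/J, against 0.542, 1.70 and 3.36 CPM in the other 26 libraries (log2 fold change 2.58 ± 0.22, adjusted p = 2.76e-09). The lowest C57BL6/J library exceeded the highest other library at both. Lgals1, galectin-1, had 36.4, 33.6 and 39.4 CPM in C57BL6/J, against 2.45, 6.57 and 11.6 CPM in the other 26 libraries (log2 fold change 2.46 ± 0.17, adjusted p = 3.15e-11). Pttg1, securin, which keeps sister chromatids from separating before anaphase, had 22.8, 20.7 and 23.02 CPM in C57BL6/J, against 1.82, 2.97 and 4.64 CPM in the other 26 libraries (log2 fold change 2.84 ± 0.13, adjusted p = 5.67e-15). Acp1, a low-molecular-weight protein tyrosine phosphatase, had 49.0, 32.2 and 48.8 CPM in C57BL6/J, against 2.17, 8.09 and 10.7 CPM in the other 26 libraries (log2 fold change 2.52 ± 0.13, adjusted p = 9.67e-14). Groups were far apart at all 3. Robo1, an axon guidance receptor, Qpct, glutaminyl cyclase, and Rbm20, a splicing factor of titin, were higher by 2.64, 1.84 and 1.96 on the log2 scale.

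Some of these transcripts were close to absent outside C57BL6/J. Where at least 1 strain had no count, the ratio of means is given in place of a fitted change. Cebpe, a transcription factor of granulocyte maturation, had 2.43, 7.80 and 8.62 CPM in C57BL6/J and averaged 0.0212 CPM over the 9 strains, with 4 strains at 0, a ratio of 296.9. Trim12a, a TRIM-family gene related to the antiviral factor TRIM5, had 8.26, 4.04 and 9.99 CPM in C57BL6/J and averaged 0.0482 CPM in the 9, with 7 strains at 0, a ratio of 154.2; DESeq2 did not call it. Acpp, the gene of prostatic acid phosphatase, had 5.25, 3.76 and 4.82 CPM in C57BL6/J and averaged 0.0372 CPM in the others, a ratio of 123.95. Eps8l1, a relative of the actin regulator Eps8, had a ratio of 29.5 and Clec2h, a C-type lectin, one of 33.4. Disp2, a relative of the Hedgehog release factor Dispatched with counts in every strain, had 5.57, 4.91 and 6.19 CPM in C57BL6/J, against 0, 0.171 and 0.817 CPM in the other 26 libraries (log2 fold change 5.00 ± 0.41, adjusted p = 8.80e-10). The plot of leading genes sets the 3 C57BL6/J values of each gene beside the strain means.

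**Figure D2:**
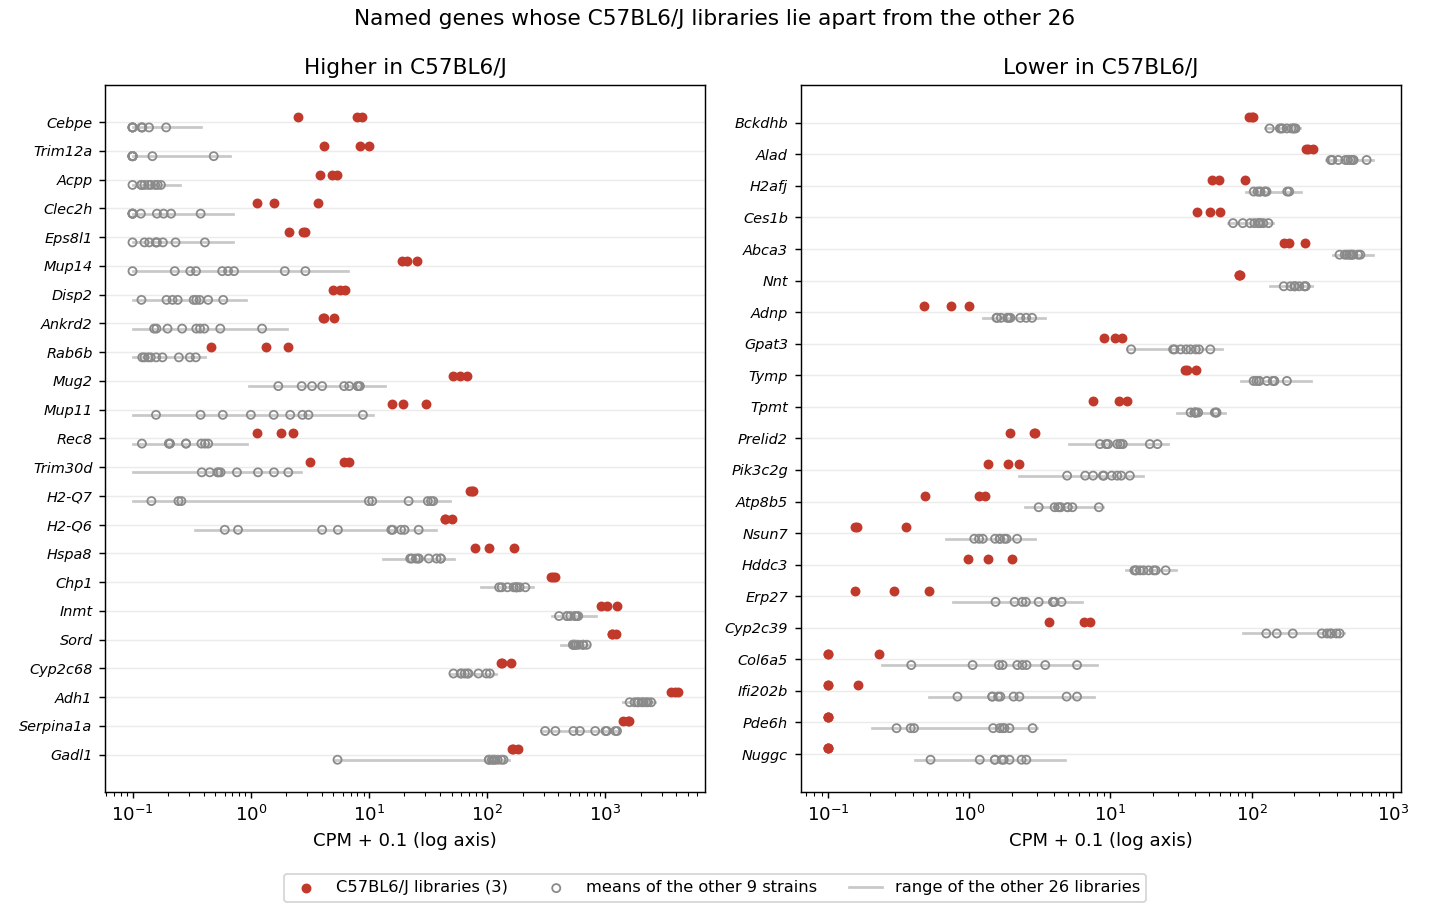
Levels in CPM (plus 0.1, log axis) of the named genes whose 3 C57BL6/J libraries lie all above (left) or all below (right) the other 26; red points are C57BL6/J libraries, open circles the means of the other 9 strains and grey lines the range of the 26 libraries. Cyp2c39, at 3.60 to 7.08 CPM in C57BL6/J, lies furthest below an abundant level elsewhere.

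Sequence shared with other genes marked many of the called genes. Measured as the percentage of the 30-base words of a gene's transcript that also occur in another annotated gene, 43.9% of genes called higher and 34.3% of genes called lower shared at least 10%, against 24.7% of genes not called. Reads of such genes can be split between copies by the alignment, so their values are less certain. Among the genes higher against each strain, Hspa8, the constitutive heat shock chaperone Hsc70, shared 61.7% and had 169, 79.6 and 104 CPM in C57BL6/J, against 13.04, 30.9 and 52.5 CPM in the other 26 libraries (log2 fold change 1.97 ± 0.23, adjusted p = 9.42e-07). Tdg, a thymine DNA glycosylase, shared 66.8% (log2 fold change 2.84 ± 0.26, adjusted p = 5.28e-09). Eif3j1, a translation initiation factor subunit, shared 57.9% (log2 fold change 2.31 ± 0.22, adjusted p = 1.22e-08). Rpl36al, a ribosomal protein, shared 26.1% (log2 fold change 1.68 ± 0.10, adjusted p = 1.67e-12). Of the genes named above, Nnt shared 96.4%, Hddc3 70.3%, Mug2 63.0%, Tymp 39.9%, Sord 36.2%, Acp1 30.8%, Tpmt 28.1% and Cyp2c39 27.9% with other annotated genes, while Lgals1, Pik3c2g and Ide shared 0%.

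Some of the 65 genes lay near each other. In the order of the 15169 placed tested genes along the chromosomes, 22 of the 61 that could be placed had another within 20 tested genes, in 10 stretches. How many would do so by spacing alone was not worked out, so the count is a description only. Rrm2 and Acp1 were both higher. So were Cebpe, Ppp1r3e and Pck2, likewise A2ml1 and Clec2h, Eif3j1 and Sord, and Guk1 and the transcript 2610507I01Rik. Erp27, Pde6h and Pik3c2g were all lower, as were Gm12248 and Gm12247. In 3 stretches neighbours went opposite ways: Tedc2 was higher and Abca3 lower, Ide higher and Cyp2c39 lower, and Gm16348 higher and Mtmr7 lower. Tedc2, of the tubulin delta and epsilon complex, had 53.1, 87.3 and 92.5 CPM in C57BL6/J, against 10.8, 23.1 and 61.2 CPM in the other 26 libraries (log2 fold change 1.81 ± 0.17, adjusted p = 8.02e-09).

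Recombinant inbred lines of the series that descend from C57BL/6J and DBA/2J hold a mosaic of the genomes of both. DBA1/J, a related strain, was used here as a stand-in for the DBA parent, with no test. On a scale of log2(CPM + 0.1) where 0 is the DBA1/J mean and 1 the C57BL6/J mean, BXD91/2RwwJ lay at or above 0.75 at 40 of the 65 genes and at or below 0.25 at 13. BXD100/RwwJ lay near C57BL6/J at 31 and near DBA1/J at 25, and BXD-40/TyJ at 25 and 27. Replicate 1 of BXD-40/TyJ stood apart in adrenal markers (922 CPM, against 210.2 and 212.7 CPM in replicates 3 and 2) and neutrophil markers (43.6 CPM, against 3.48 and 6.89 CPM). Without it, a comparison added after its marker levels were seen, that line lay near C57BL6/J at 26 genes and near DBA1/J at 27. At 36 genes at least 1 line lay near each strain. Nnt had 79.9, 72.5 and 70.9 CPM in BXD100/RwwJ and 74.0, 81.1 and 78.6 CPM in BXD-40/TyJ, both like C57BL6/J, and 167.2, 202 and 184 CPM in BXD91/2RwwJ, like DBA1/J. Cyp2c39 had 161.4, 153 and 191 CPM in BXD100/RwwJ, near the DBA1/J mean of 195.3 CPM, while its levels were 9.92, 9.69 and 7.13 CPM in BXD91/2RwwJ and 9.64, 9.81 and 10.7 CPM in BXD-40/TyJ. BXD-40/TyJ was thus near C57BL6/J at both genes, while BXD100/RwwJ and BXD91/2RwwJ were each near a different strain at Nnt than at Cyp2c39. Cebpe was at C57BL6/J-like levels in BXD91/2RwwJ alone of the 3 lines, with 4.80, 7.58 and 4.84 CPM there, 0, 0.275 and 0 CPM in BXD100/RwwJ and 0, 0 and 0.0683 CPM in BXD-40/TyJ. Its neighbour Pck2 divided the lines the same way, at 12.6, 14.04 and 14.5 CPM in BXD91/2RwwJ, 2.97, 3.09 and 3.46 CPM in BXD100/RwwJ and 4.59, 4.16 and 3.42 CPM in BXD-40/TyJ. A2ml1, Clec2h, Mug2, Erp27, Pde6h and Pik3c2g were near C57BL6/J in BXD100/RwwJ and BXD91/2RwwJ and near DBA1/J in BXD-40/TyJ. All 3 lines lay near C57BL6/J at 11 genes, including Pttg1, Tpmt, Hddc3, Abca3 and Guk1, and near DBA1/J at 2, Tymp and Rpl36-ps12. Reads with several alignments were 3.74% to 4.07% in the 9 libraries of the BXD lines, below the 7.97% to 9.92% of the 29 inbred libraries, and the BXD reads were processed on a pair of references, per the file names. The part of this difference in the BXD levels was not tested.

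**Figure D3:**
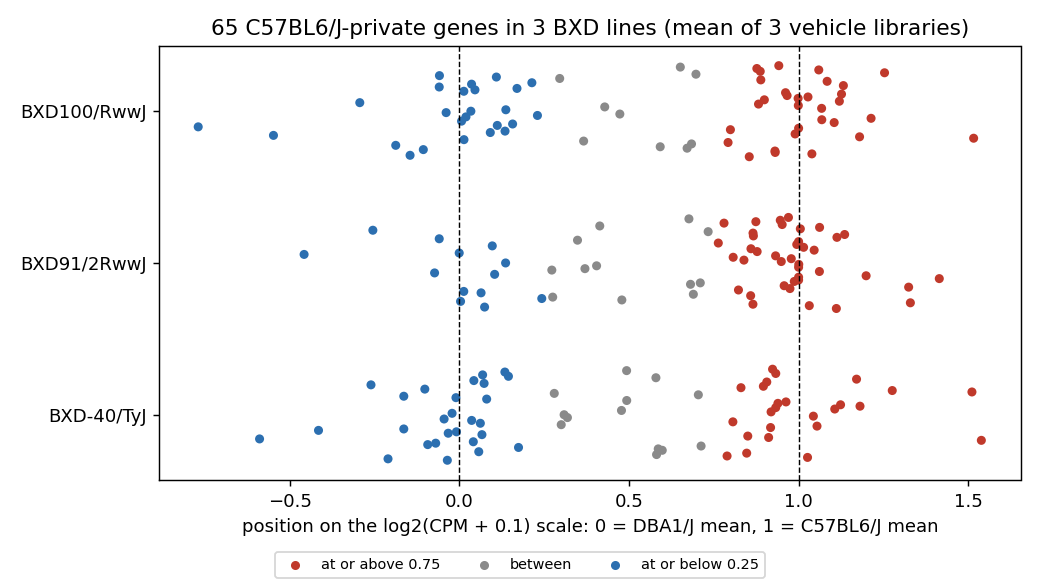
Position of each of the 65 genes in 3 BXD lines (mean of 3 vehicle libraries) on the log2(CPM + 0.1) scale, where 0 is the DBA1/J mean and 1 the C57BL6/J mean; red points are at or above 0.75, blue points at or below 0.25 and grey points between. Points gather near both strains in each line, with 40 near C57BL6/J in BXD91/2RwwJ.

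Of 24 tested genes on a list of known strain alleles, 7 were higher and 5 lower in C57BL6/J (median log2 fold change 0.41; over all tested genes 9.09% were called, 5.59% higher and 3.5% lower, with a median of 0.01). Besides Pttg1, Nnt, Ifi202b, Wdfy1 and Ide, Alad, the aminolevulinate dehydratase of heme synthesis, whose copy number is known to vary between strains, had 249.7, 269.9 and 242 CPM in C57BL6/J, against 334, 453 and 725 CPM in the other 26 libraries (log2 fold change −0.89 ± 0.19, adjusted p = 0.00210). Glo1, glyoxalase 1, also known for a duplication in several strains, was lower, with 92.6, 100.4 and 116 CPM in C57BL6/J, against 81.7, 171.3 and 365 CPM in the other 26 libraries (log2 fold change −0.64 ± 0.12, adjusted p = 8.83e-04). Entpd4b and Akr1b7 were higher by 0.68 and 1.20 on the log2 scale. Entpd4b shares all of its 30-base words with other genes, and the call of Akr1b7 ended with A/J replicate 2 put back (adjusted p = 0.184, edgeR). Other calls turned on 1 strain or library. Zhx2, a repressor of fetal liver genes known to be disrupted in BALB/cJ, had 24.4, 27.1 and 26.1 CPM in C57BL6/J, while strain means were 0.512 CPM in BALB/CJ and 15.1 to 22.4 CPM in the remaining 8 (log2 fold change 0.98 ± 0.14, adjusted p = 1.92e-05). Its call ended without BALB/CJ. Hc, complement C5, known to be deficient in several strains, had 723, 529.9 and 950.4 CPM in C57BL6/J, and strain means of 160.97 CPM in FVB/NJ, 197 CPM in NOD/SHILTJ and 207 CPM in A/J (log2 fold change 0.72 ± 0.18, adjusted p = 0.0121). The call of Hc ended without C57BL6/J replicate 3 or without FVB/NJ, and that of Naip2, an inflammasome sensor, without C57BL6/J replicate 3 or without 129S1/SVIMJ. Ahr, the dioxin receptor itself, had 33.8, 13.1 and 38.0 CPM in C57BL6/J, against 7.51, 21.9 and 46.0 CPM in the other 26 libraries, and was not called (log2 fold change 0.41 ± 0.25, adjusted p = 0.378).

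Among drug-metabolizing P450 enzymes of the Cyp2c and Cyp2d families, 7 of 19 tested members were higher (36.8%, against 5.59% of all tested genes) and 2 lower. With the 26 others pooled as 1 group, 2 were higher and 1 lower. Cyp2c23, an arachidonic acid epoxygenase, had 451, 499 and 433 CPM in C57BL6/J, against 22.03, 35.2 and 545 CPM in the other 26 libraries (log2 fold change 3.05 ± 0.11, adjusted p = 6.09e-17). C57BL6/J shared this level with FVB/NJ, at a mean of 499.7 CPM, and 129S1/SVIMJ, at 331 CPM, while the remaining 7 strains averaged 24.3 to 36.7 CPM. Its ratio of means was 3.94. Cyp2c68, a close relative, had 133, 131.8 and 159 CPM in C57BL6/J, against 48.7, 68.8 and 118 CPM in the other 26 libraries (log2 fold change 0.97 ± 0.12, adjusted p = 1.30e-06). Cyp2c50, Cyp2c69 and Cyp2c37 were higher by 0.91, 1.04 and 0.76 on the log2 scale, so that Cyp2c39 stood as the 1 member of the Cyp2c family called lower. Calls of Cyp2c55 and Cyp2d11, both near 1 CPM, ended without C57BL6/J replicate 3. Cyp2d9, a steroid hydroxylase higher in male mice, was lower (log2 fold change −1.95 ± 0.42, adjusted p = 0.00339).

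The remaining P450 families had called shares of 15.8% for the Cyp1 and other Cyp2 members and 14.3% for the Cyp3a and Cyp4 members. Over all tested genes 9.09% were called, 5.59% higher and 3.5% lower. With the 26 others pooled as 1 group edgeR called no member of either list, and 2 members of each had an unadjusted p below 0.05. Of 19 members of the Cyp1 family and of Cyp2 subfamilies other than Cyp2c and Cyp2d, 3 were higher and none lower at an adjusted p below 0.05. Cyp2b9 and Cyp2b13, phenobarbital-responsive enzymes higher in female mice, had strain means of 241 and 73.9 CPM in C57BL6/J, but 0.435 and 0 CPM in 129S1/SVIMJ. Both calls ended without 129S1/SVIMJ, where Cyp2b9 turned to a log2 fold change of −0.07. Cyp2r1, a vitamin D 25-hydroxylase and the third call, was higher (log2 fold change 0.90 ± 0.17, adjusted p = 7.70e-04). The dioxin target Cyp1a2 had 592, 549 and 515 CPM in C57BL6/J, against 296, 493 and 984 CPM in the other 26 libraries, and was not called (log2 fold change 0.15 ± 0.20, adjusted p = 0.759). Of 21 Cyp3a and Cyp4 members, 2 were higher and 1 lower. Cyp3a13 had 298, 243 and 299 CPM in C57BL6/J, against 27.9, 70.3 and 417 CPM in the other 26 libraries (log2 fold change 1.67 ± 0.17, adjusted p = 4.72e-08). The fatty acid hydroxylase Cyp4a32 was lower (log2 fold change −1.66 ± 0.31, adjusted p = 6.15e-04), and the call of Cyp4a31 ended without C57BL6/J replicate 1 or 2.

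Conjugating enzymes attach glutathione, glucuronic acid or sulfate to drugs and hormones. Of 23 glutathione transferases, 6 were higher and none lower (26.1% called higher, against 5.59% of all tested genes; median 0.18). Gstm3 had 40.6, 29.8 and 36.2 CPM in C57BL6/J, against 0.252, 21.95 and 45.9 CPM in the other 26 libraries (log2 fold change 1.16 ± 0.21, adjusted p = 3.39e-04), and the groups overlapped. Gsta2 and Gstm6 were higher by 1.14 and 0.88 on the log2 scale, while the call of Gstm1 ended without C57BL6/J replicate 2, that of Gsto1 without replicate 2 or 3, and that of Gsta3 without any one of 8 libraries. Of 30 glucuronosyltransferases and sulfotransferases, 6 were higher and 1 lower (median 0.08), with 3 higher when C57BL6/J replicate 3 was left out. With the 26 others pooled as 1 group edgeR called no member of either list, and 3 members of each had an unadjusted p below 0.05. Sult2a2, a hydroxysteroid sulfotransferase, had 207, 88.0 and 176.6 CPM in C57BL6/J, against 0, 51.5 and 102 CPM in the other 26 libraries (log2 fold change 2.93 ± 0.29, adjusted p = 1.17e-07). Ugt1a5, a bilirubin and phenol glucuronosyltransferase family member, was higher by 1.18. Of 14 carboxylesterases, Ces1g and the related deacetylase Aadac were higher, by 0.93 and 0.59, and Ces1b was lower as given above. Among 22 genes of the AHR complex and NRF2 targets, Nqo1, a quinone reductase, was the 1 call, higher by 0.71, and it ended without C57BL6/J replicate 1.

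Plasma proteins encoded in gene clusters varied strongly between strains. Of 19 tested members of the Serpina1 and Serpina3 clusters, which encode antitrypsin-like and antichymotrypsin-like protease inhibitors, 5 were higher and 3 lower. That is 26.3% and 15.8%, against 5.59% and 3.5% of all tested genes. With the 26 others pooled as 1 group edgeR called none of the 18 tested, and 3 had an unadjusted p below 0.05. Serpina1a had 1418, 1574 and 1551 CPM in C57BL6/J, against 285, 751 and 1283 CPM in the other 26 libraries (log2 fold change 1.08 ± 0.11, adjusted p = 1.02e-07), with no overlap. Serpina1d had 2013, 1998 and 1961 CPM in C57BL6/J (log2 fold change 2.51 ± 0.15, adjusted p = 1.52e-12), a level shared with A/J at 1779.8 CPM, C3HeB/FeJ at 2178 CPM and NZO/HILTJ at 2322 CPM. In the remaining 6 strains the means ran from 17.1 to 343 CPM. Serpina1e followed the same division, with 157.97, 614 and 378 CPM in C57BL6/J, strain means of 820.0, 294 and 661 CPM in those 3 strains, and 1.02 to 21.2 CPM elsewhere (log2 fold change 4.68 ± 0.32, adjusted p = 2.53e-10). Serpina11 was lower (log2 fold change −1.15 ± 0.19, adjusted p = 8.65e-05). These genes share sequence (75.8% of Serpina1a), so reads can move between members.

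Major urinary proteins, lipocalins that carry pheromones and are made in liver from a cluster of near-identical genes, gave 9 higher and 4 lower of 17 tested. Those shares were 52.9% and 23.5%, against 5.59% and 3.5% of all tested genes. Pooling the 26 others as 1 group left 2 higher and none lower of 16 tested. Mup14 had 25.3, 18.8 and 20.9 CPM in C57BL6/J and a ratio of means of 28.4, with 1 strain at 0; 99.9% of it is shared with other genes. Mup11 had 15.5, 30.1 and 19.5 CPM in C57BL6/J, against 0, 1.30 and 10.8 CPM in the other 26 libraries (log2 fold change 4.36 ± 0.35, adjusted p = 1.10e-09). In the other direction, Mup9 had 0.769, 1.25 and 3.93 CPM in C57BL6/J, against 0.212, 347 and 1491 CPM in the other 26 libraries (log2 fold change −6.26 ± 0.87, adjusted p = 2.71e-05). Mup20, known as the male pheromone darcin, was low throughout but higher in C57BL6/J, with 1.60, 2.73 and 2.85 CPM there, against 0, 0.570 and 3.17 CPM in the other 26 libraries (log2 fold change 2.06 ± 0.36, adjusted p = 2.66e-04). Which of these near-identical copies a read came from is uncertain.

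Growth hormone pulses set many liver genes to differ between male and female mice. Of 29 female-biased liver genes 8 were higher and 1 lower (27.6% and 3.45%, median 0.24). Of 22 male-biased genes 3 were higher and 2 lower (13.6% and 9.09%, median −0.09). Over all tested genes 5.59% were higher and 3.5% lower. With the 26 others pooled as 1 group edgeR called no member of either list. An unadjusted p below 0.05 was reached there by 3 female-biased and 4 male-biased members. Cyp17a1, the steroid 17-hydroxylase, had 243, 202 and 254 CPM in C57BL6/J, against 3.48, 63.8 and 424 CPM in the other 26 libraries (log2 fold change 1.80 ± 0.23, adjusted p = 5.20e-06). Among 23 genes of the growth hormone, prolactin and IGF axis, 1 was called: Igfbp3, an IGF carrier, was lower (log2 fold change −0.97), and that call ended without C57BL6/J replicate 2 or 3. Of 19 circadian clock genes none was called by edgeR (1, the clock output gene Dbp, at an unadjusted p below 0.05), and DESeq2 called 1 lower. The list's median was −0.20.

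Genes that drive the cell cycle were the list with the largest number of calls in 1 direction. Dividing cells pass from the G1 cyclins through DNA synthesis to the mitotic kinases, and hepatocytes of adult mice divide rarely, with more division in pregnancy. Of 32 tested members 15 were higher and none lower (46.9% called higher, against 5.59% of all tested genes; median 0.89). Rrm2, the ribonucleotide reductase subunit that supplies deoxynucleotides, had 19.5, 15.9 and 11.5 CPM in C57BL6/J, against 1.63, 3.96 and 7.67 CPM in the other 26 libraries (log2 fold change 2.05 ± 0.18, adjusted p = 2.17e-09). Cdk1, the mitotic kinase, had 13.96, 7.86 and 4.64 CPM in C57BL6/J, against 1.57, 3.02 and 5.43 CPM in the other 26 libraries (log2 fold change 1.51 ± 0.23, adjusted p = 3.58e-05). Ccnd1, the G1 cyclin D1, had 326, 166 and 159.9 CPM in C57BL6/J, against 17.6, 79.6 and 296 CPM in the other 26 libraries (log2 fold change 1.34 ± 0.23, adjusted p = 1.83e-04). All 3 C57BL6/J libraries exceeded the others at Rrm2, and the groups overlapped at Cdk1 and Ccnd1. Replicate 1 was the highest C57BL6/J library at each of these 3 genes. Without that library 4 members were called, those being Rrm2, Cdk1, Ccnd1 and Aurka, against 15 without replicate 2 and 18 without replicate 3. With the 26 others pooled as 1 group, 5 were called higher. The list summed to 633, 351 and 308 CPM in C57BL6/J, against 119 to 427 CPM in the others. Markers of other cells ran in the same order over the C57BL6/J replicates, with sums of 566, 362 and 261 CPM for stellate cells and matrix and 623, 376 and 274 CPM for sinusoidal endothelium, and the neutrophil sum was also highest in replicate 1. The stellate and endothelial sums lay within those of the other libraries, at 193.5 to 857 CPM and 229 to 986 CPM. The part of any of these cell types in the cell cycle levels was not tested. The mitotic genes Tpx2, Birc5, Ccnb2, Cdc20, Plk1, Aurkb and Kif11, the replication genes Mcm6, Tyms and Top2a, and the cyclin Ccna2 were the 11 whose call ended without replicate 1. Those of Plk1 and Tyms also ended without replicate 2, that of Kif11 without replicate 3, and that of Tyms without A/J replicate 1.

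Promoters of the leading cell cycle genes are shown because the genes moved together. Each line gives 250 bases before the start of transcription, read toward it, from RefSeq on GRCm38.p6. Capitals mark CCAAT or its reverse ATTGG, the box bound by NF-Y, and TTTGAA or its reverse TTCAAA, the core of the cell cycle homology region.
Rrm2 (chr12:24708004-24708253, plus strand): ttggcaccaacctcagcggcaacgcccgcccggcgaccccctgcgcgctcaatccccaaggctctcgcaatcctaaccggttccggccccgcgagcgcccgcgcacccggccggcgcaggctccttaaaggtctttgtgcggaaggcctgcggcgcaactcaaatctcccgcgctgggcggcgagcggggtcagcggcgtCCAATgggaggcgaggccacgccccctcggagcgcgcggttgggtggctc
Cdk1 (chr10:69352913-69353162, minus strand): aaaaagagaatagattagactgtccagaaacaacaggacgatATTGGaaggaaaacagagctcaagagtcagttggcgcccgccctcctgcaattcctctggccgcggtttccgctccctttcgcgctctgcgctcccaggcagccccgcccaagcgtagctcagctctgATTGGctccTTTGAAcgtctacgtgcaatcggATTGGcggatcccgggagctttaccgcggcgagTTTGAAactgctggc
Rrm2 has a single CCAAT on the coding strand, and Cdk1 has 3, all as ATTGG, beside 2 TTTGAA. Both motifs were searched on both strands, and no match overlapped another. CCAAT occurred in 18 of the 24 tested cell cycle genes with a promoter in the table (75%) and in 9 of 11 called ones, against 36% of the promoters of tested genes and 34.5% of all 27025. TTTGAA occurred in 7 of 24 (29.2%), against 11% and 16.3%. A match is a description of the letters and not of binding.

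**Figure D4:**
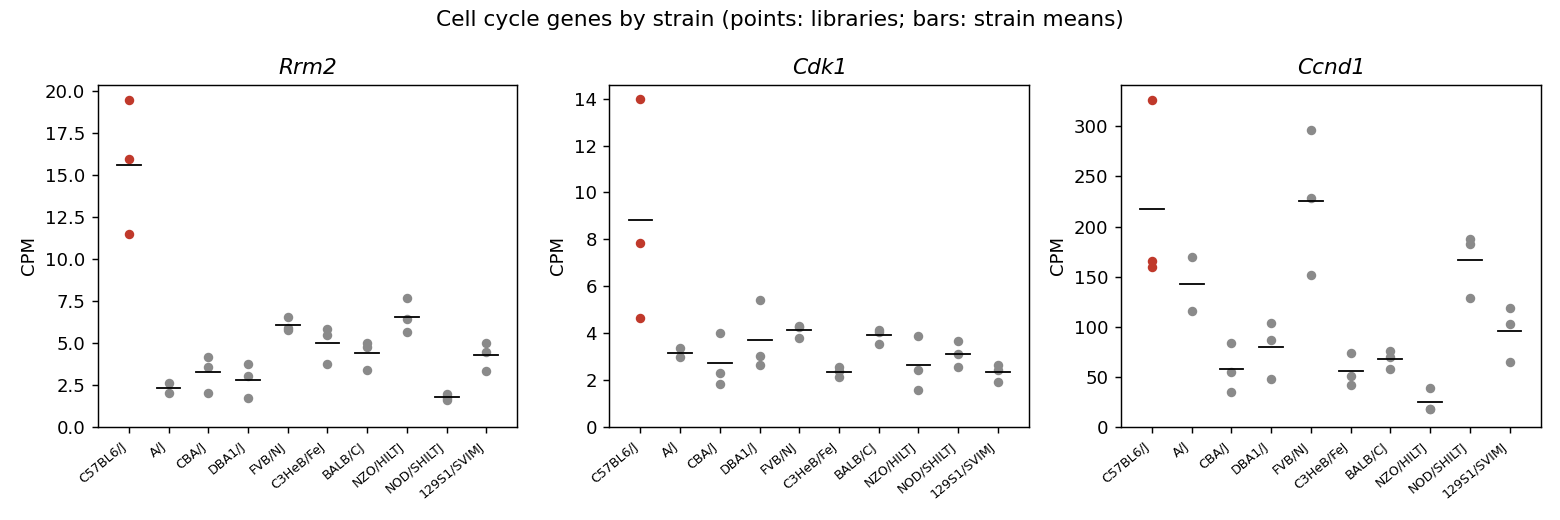
Levels in CPM of Rrm2, Cdk1 and Ccnd1 in every library (points) with strain means (bars), C57BL6/J in red at the left and the other 9 strains in grey. At Rrm2 the 3 C57BL6/J libraries, at 11.5 to 19.5 CPM, lie above all others, whose highest is 7.67 CPM.

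Interferon-stimulated genes, which cells switch on through ISGF3 after type I interferon, were also called in 1 direction. Of 36 tested, 8 were higher and none lower (22.2% called higher, against 5.59% of all tested genes; median 0.43). With the 26 others pooled as 1 group edgeR called none, and 6 had an unadjusted p below 0.05. Oasl1, an antiviral relative of oligoadenylate synthetase, had 24.5, 21.2 and 20.3 CPM in C57BL6/J, against 2.24, 11.7 and 20.1 CPM in the other 26 libraries (log2 fold change 1.14 ± 0.18, adjusted p = 9.18e-05). It was the 1 member of the list above all 26 and called with each library left out. Isg15, the ubiquitin-like interferon product, had 23.6, 21.4 and 24.03 CPM in C57BL6/J, against 4.36, 13.2 and 29.9 CPM in the other 26 libraries, with overlap (log2 fold change 0.87 ± 0.23, adjusted p = 0.0142). Its call ended without any one of the 3 C57BL6/J libraries. The list's count was 1 without C57BL6/J replicate 1, 6 without replicate 2 and 3 without replicate 3. Calls of Oasl2, Zbp1, Ifit3, Mx2, Trim30a and Irf7 all ended without replicate 1, those of Ifit3, Mx2, Trim30a and Irf7 also without replicate 3, and those of Zbp1 and Irf7 also without replicate 2. The call of Irf7 ended without any one of 19 libraries, 16 of them from other strains.

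The Isg15 promoter is shown because interferon genes were called together. Its 250 bases before the start, from RefSeq on GRCm38.p6, have the interferon motif, GAAA, any 2 bases and GAAA, in capitals.
Isg15 (chr4:156200819-156201068, minus strand): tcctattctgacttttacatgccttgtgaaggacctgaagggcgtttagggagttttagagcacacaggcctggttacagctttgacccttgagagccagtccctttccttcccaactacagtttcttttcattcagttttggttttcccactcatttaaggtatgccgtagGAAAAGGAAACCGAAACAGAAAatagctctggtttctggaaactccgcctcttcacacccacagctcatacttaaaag
It carries 3 overlapping copies of that motif, the core of the interferon-stimulated response element (searched on both strands, as TTTC, any 2 bases and TTTC on the other). It occurred in 16 of 25 tested interferon genes with a promoter (64%) and in 3 of 6 called ones, against 2.73% of promoters of tested genes and 3.04% of all.

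The p200 family, DNA sensors encoded in a cluster that differs in content between strains, had 6 members higher and 1 lower of 11 tested (median 1.97). Those shares were 54.5% and 9.09%, against 5.59% and 3.5% of all tested genes. Pooling the 26 others as 1 group left 1 higher and 1 lower of 9 tested. Mndal had 4.74, 2.35 and 3.33 CPM in C57BL6/J, against 0, 0.123 and 2.70 CPM in the other 26 libraries (log2 fold change 4.07 ± 0.36, adjusted p = 2.85e-09). Ifi206 and Ifi213 had 0.384, 0.655 and 0.892 CPM and 0.641, 0.218 and 2.08 CPM in C57BL6/J, all above the other 26, whose highest values were 0.171 and 0.189 CPM. Ifi204 was higher by 1.99. Without C57BL6/J replicate 3, 2 members were called higher, and without replicate 1, 4. The 1 lower member was Ifi202b, described above.

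Antigen presentation genes of MHC class I lie in the H2 complex, whose haplotype differs between strains. Of 20 tested, 8 were higher (40%, against 5.59% of all tested genes) and 4 lower. With the 26 others pooled as 1 group edgeR called none, and 6 had an unadjusted p below 0.05. H2-Q7 had 71.0, 75.8 and 73.8 CPM in C57BL6/J, against 0, 11.2 and 48.8 CPM in the other 26 libraries (log2 fold change 4.35 ± 0.20, adjusted p = 1.16e-14). H2-Q6 had 50.6, 44.2 and 44.1 CPM in C57BL6/J, against 0.237, 12.9 and 36.6 CPM in the other 26 libraries (log2 fold change 2.86 ± 0.17, adjusted p = 8.28e-13). Both lay above all 26 others. H2-K1, a classical class I heavy chain, had 1828, 2065 and 2017 CPM in C57BL6/J, against 123, 704 and 2031 CPM in the other 26 libraries, and exceeded 5 of the 9 strains (log2 fold change 1.36 ± 0.14, adjusted p = 1.07e-07). H2-T22 was higher by 2.53, and H2-Bl and H2-T10 were lower, with log2 fold changes of −2.49 and −1.08. The call of Tap2 ended without C57BL6/J replicate 1 or 3, that of H2-T24 without replicate 1 or 2, and that of H2-M3 without any one of the 3. Reads from an allele unlike the reference on which its strain was placed can go uncounted at such genes. Per the file names that reference differed between strains, and its part here was not tested. Of 11 class II genes 1 was called, H2-Ob, and that call ended without any one of 14 libraries.

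Cholesterol synthesis runs from acetyl-CoA through mevalonate and lanosterol under the control of SREBP2. Of 24 tested genes of the pathway 6 were higher and none lower (25% called higher, against 5.59% of all tested genes; median 0.45). With the 26 others pooled as 1 group, 3 were higher. Cyp51, the lanosterol demethylase, had 253, 146.3 and 281 CPM in C57BL6/J, against 26.3, 102 and 204 CPM in the other 26 libraries (log2 fold change 1.30 ± 0.21, adjusted p = 1.03e-04). Sc5d, which acts near the end of the pathway, had 403, 221.6 and 411 CPM in C57BL6/J, against 74.4, 162.8 and 319.6 CPM in the other 26 libraries (log2 fold change 1.03 ± 0.21, adjusted p = 0.00146). Acat2, the cytosolic thiolase at its start, had 60.7, 47.1 and 55.6 CPM in C57BL6/J, against 17.3, 31.0 and 45.5 CPM in the other 26 libraries (log2 fold change 0.81 ± 0.18, adjusted p = 0.00289). The lowest of the 3 C57BL6/J libraries lay within the range of the others at Cyp51 and Sc5d, and above it at Acat2. The calls of Idi1, Pmvk and Fdft1 ended without C57BL6/J replicate 3, and those of Pmvk and Fdft1 also without replicate 1, leaving 3 and 4 higher.

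The 250 bases before the start of Cyp51, from RefSeq on GRCm38.p6, are shown with CCAAT in capitals because that box was searched in the whole pathway.
Cyp51 (chr5:4104698-4104947, minus strand): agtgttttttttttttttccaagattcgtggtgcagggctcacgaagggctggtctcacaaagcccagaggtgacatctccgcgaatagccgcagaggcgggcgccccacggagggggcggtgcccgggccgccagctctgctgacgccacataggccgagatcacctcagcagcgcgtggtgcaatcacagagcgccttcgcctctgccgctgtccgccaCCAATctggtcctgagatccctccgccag
Cyp51 holds a single copy. CCAAT or ATTGG stood in 14 of the 16 tested pathway genes with a promoter in the table (87.5%), against 36% of the promoters of tested genes.

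Other lipid pathways had called shares near or below the 9.09% of all tested genes. The share was 8.82% for fatty acid synthesis and storage and 9.68% for apolipoproteins and lipoprotein metabolism. It was 6.25% for PPARA targets and fatty acid oxidation and 5.71% for bile acid genes. Of 34 genes of fatty acid synthesis and storage 3 were higher: Acaca, acetyl-CoA carboxylase, by 0.85, Pparg, the adipogenic receptor, by 1.20, and Elovl6, a fatty acid elongase, by 1.33, the last ending without C57BL6/J replicate 1. Apoa4, an apolipoprotein, was lower, with 236, 225 and 159.9 CPM in C57BL6/J, against 191, 393 and 2619 CPM in the other 26 libraries (log2 fold change −1.28 ± 0.22, adjusted p = 2.85e-04). It was 1 of 2 lower among 31 apolipoprotein and lipoprotein genes, with Saa4, whose call ended without C57BL6/J replicate 1 or 3; Pltp was higher, and its call ended without replicate 1 or 2. Of 32 PPARA targets and fatty acid oxidation genes 1 was higher and 1 lower; Ppara itself was lower (log2 fold change −0.64), a call that ended without any one of the 3 C57BL6/J libraries. Of 35 bile acid genes, Cyp46a1, cholesterol 24-hydroxylase, was lower, with 2.11, 4.15 and 2.44 CPM in C57BL6/J. That difference came with strain means of 709.9 CPM in CBA/J, 632 CPM in C3HeB/FeJ and 421 CPM in NOD/SHILTJ, against 1.60 to 8.20 CPM in the remaining 6 (log2 fold change −2.93 ± 0.42, adjusted p = 2.82e-05). Cyp39a1, an oxysterol 7-hydroxylase, was the 1 higher bile acid gene (log2 fold change 1.28 ± 0.29, adjusted p = 0.00417).

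Glucose and glycogen genes gave 3 higher and 2 lower of 30, a called share of 16.67%. Over all tested genes 9.09% were called, 5.59% higher and 3.5% lower. The share was 3.704% for ER and integrated stress. Those of the mitochondrial redox, heme and iron, and retinoid lists lay above 9.09% and below the glucose share. The call of Pck2 held with each library left out. Those of Sds and Pfkfb1 ended without C57BL6/J replicate 1 or 3, that of Gbe1 without replicate 1, and that of Pfkl without any one of 14 libraries. Among 37 genes of nicotinamide metabolism and mitochondrial redox 2 were higher and 2 lower. Prdx3, the mitochondrial peroxiredoxin, had 128.2, 103 and 131 CPM in C57BL6/J, against 69.3, 85.4 and 118 CPM in the other 26 libraries (log2 fold change 0.43 ± 0.09, adjusted p = 0.00281). Kmo, of the kynurenine pathway, was higher by 0.42 and Glrx, glutaredoxin, lower (log2 fold change −0.65), and both calls ended without C57BL6/J replicate 1. Nnt was thus the 1 strongly lower member. Of 33 heme and iron genes, Alad and Slc40a1 were lower, and Hfe and Hfe2 higher by 0.34 and 0.59 in calls that ended without any one of 24 libraries for Hfe and of the 3 of C57BL6/J for Hfe2. Of 23 retinoid genes, Dhrs9, Bco2 and Aldh1a1 were higher, each in a call that ended without 1 C57BL6/J library (replicate 1, 3 and 3). Trib3, with a log2 fold change of −1.32, was the 1 call among 27 genes of ER and integrated stress, and it ended without any one of 24 libraries.

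Acute phase proteins rise in liver with inflammation. Of 30 tested, 1 was higher and 3 lower (13.3% called, against 9.09% of all tested genes, with a median of −0.12). Apcs, serum amyloid P, had 182, 242 and 256.2 CPM in C57BL6/J, against 222.4, 639 and 1256 CPM in the other 26 libraries (log2 fold change −1.50 ± 0.21, adjusted p = 1.38e-05), lower than in 8 of the 9 strains. The calls of Saa4 and Serpina3c ended without C57BL6/J replicate 1 or 3, and that of Serpina3m without replicate 1 or 2. Of 44 complement and coagulation genes, 3 were higher and 1 lower, a called share of 9.09%, the same as over all tested genes. The call of Mbl2 ended without any one of 16 libraries, and that of the clotting factor F11 without C57BL6/J replicate 1 or 2.

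Markers of other cells differed in their called shares, set here beside the 9.09% of all tested genes (5.59% higher, 3.5% lower). The share was 40% for neutrophil, 20% for cholangiocyte, 18.2% for erythroid, 11.1% for Kupffer cell and 10% for lymphocyte markers. None of 17 stellate cell and matrix markers, 14 sinusoidal endothelial markers, 12 muscle markers or 4 adipose markers was called by edgeR at an adjusted p below 0.05 or by DESeq2, and 1 of them, Rgs5, had an unadjusted p below 0.05. Of 18 Kupffer cell markers, Folr2, a folate receptor of resident macrophages, was higher, with 28.4, 17.7 and 21.6 CPM in C57BL6/J, against 0.632, 8.02 and 22.4 CPM in the other 26 libraries (log2 fold change 1.87 ± 0.19, adjusted p = 5.60e-08), and Slc40a1 was lower. The macrophage list summed to 888 to 1141 CPM in C57BL6/J, within the 569 to 2413 CPM of the others. Neutrophil markers were higher at 4 of 10 (median 1.65): S100a9 had 8.65, 2.35 and 7.20 CPM in C57BL6/J, against 0.441, 1.23 and 3.58 CPM in the other 26 libraries (log2 fold change 2.05 ± 0.44, adjusted p = 0.00256). None of the 4 was called without C57BL6/J replicate 1, and the neutrophil sum was 24.9, 8.02 and 21.9 CPM in C57BL6/J, against 2.14 to 14.3 CPM in the others. Cebpe, named above, belongs to this lineage and had 2.43, 7.80 and 8.62 CPM in the C57BL6/J libraries. The part of neutrophils in its level was not tested. Cholangiocyte markers gave 2 higher of 10, Spp1, osteopontin, by 0.82 and Prom1, a call that ended without any one of 22 libraries. Lymphocyte markers gave 1 higher, Cd79a, and 1 lower, Cd4, of 20, and the call of Cd79a ended without C57BL6/J replicate 1 or 2 and that of Cd4 without any one of the 3. Of 11 erythroid markers, Hba-a2 was higher and Hbb-bt, a globin whose copies differ between strains, was lower; Hba-a2 shares 91.2% of its sequence, and the call of Hbb-bt ended without any one of 5 libraries. Adrenal markers gave 1 higher, Akr1b7, and 2 lower, Hsd3b1 and Fdx1, of 5. The calls of Akr1b7 and Hsd3b1 ended with A/J replicate 2 put back. That of Hsd3b1 also ended without any one of the 3 C57BL6/J libraries, and that of Fdx1 without replicate 1 or 3. Pancreas markers gave 1 higher of 3, Cela2a, in a call that ended without C57BL6/J replicate 2 or with A/J replicate 2 put back. The 1 tested placental or uterine marker was not called. Nuclear and mitochondrial transcripts that track RNA quality gave 5 higher of 13 (38.5%), with 1 left without C57BL6/J replicate 3. Their sum was 28956 to 35264 CPM in C57BL6/J, within the 15651 to 36433 CPM of the others but above their median of 26665 CPM. The C57BL6/J mean of 32197 CPM was the highest of the 10 strains, followed by 31912 CPM in FVB/NJ. The part of RNA quality in the differences was not tested.

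The plot of gene lists sets these groups side by side. Calls lay on both sides of 0 for the MHC class I, major urinary protein and serpin lists, and on the higher side for the cell cycle, cholesterol and interferon lists.

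**Figure D5:**
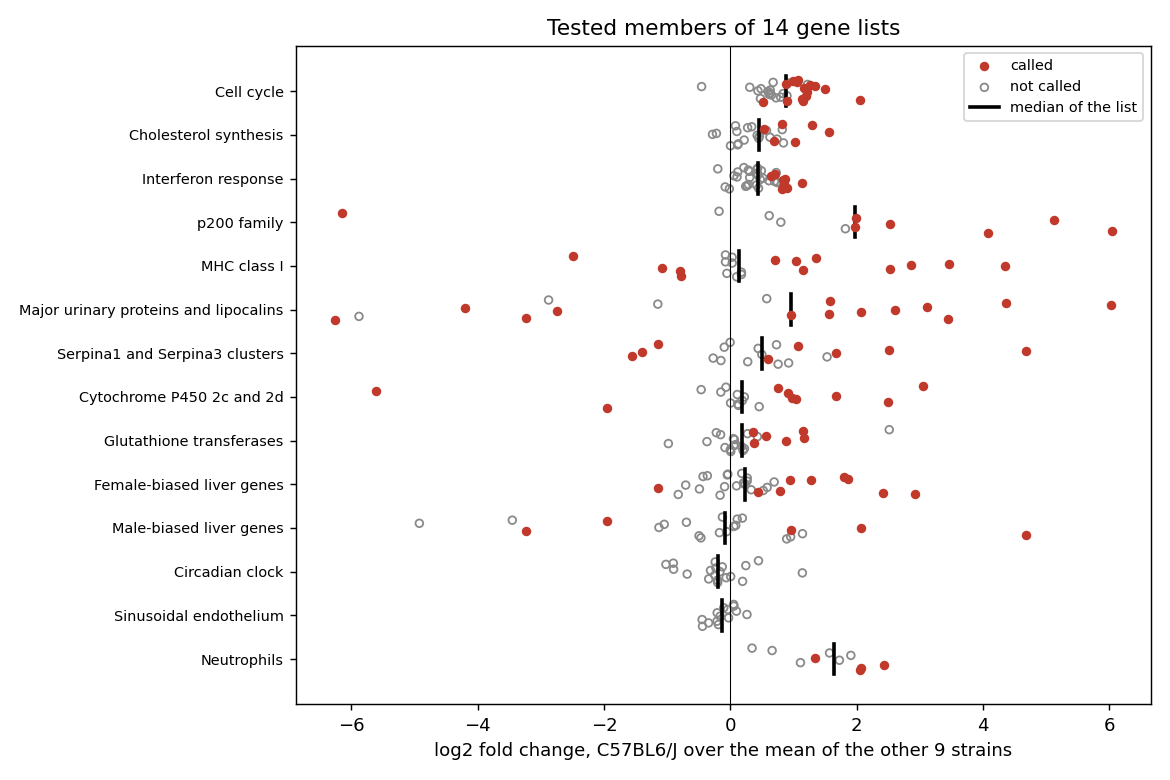
Log2 fold change of C57BL6/J over the mean of the other 9 strains (horizontal axis) for every tested member of 14 gene lists; red points were called, open circles were not, and black bars mark list medians. The cell cycle list has a median of 0.89 with 15 of 32 members called, all higher.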

How the data were processed

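Total RNA of whole liver was made into libraries with a NEBNext Ultra RNA kit, which does not mark strand, so reads of overlapping and antisense genes cannot be told apart. Per the submitters' processing notes, the authors used FastQC 0.11.5, Trimmomatic 0.38, Bowtie2 and HTSeq 0.6.1 with build mm9. The deposited values are whole-number read counts per gene ID, 1 table per library, raw and not normalized by the authors. Reads in no gene made up 46.7% to 50.0% and ambiguous ones 0.635% to 1.33%, and both rows were left out of library sizes.

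Of 37310 gene IDs, 32620 were named from GENCODE vM21. Genes were filtered with filterByExpr, scaled with TMM and fitted in edgeR 4.0.16 (R 4.3.3) with 1 mean per strain (quasi-likelihood, robust). C57BL6/J minus one ninth of each other strain was the main contrast, and each strain was also tested alone. A call is a Benjamini-Hochberg adjusted p below 0.05. The fit was checked on simulated counts. DESeq2 1.42.0, other scalings, filters and left-out libraries were alternatives. CPM values are per 1000000 reads in genes, without TMM. Depth limits precision to the counts behind each value, and intervals cover counting error only. Chi-square per degree of freedom between C57BL6/J libraries was 19.6 to 50.1, so none was a repeat deposit.

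The members and gene lists were chosen with earlier results of these data known. Named were, leaving out predicted genes and pseudogenes, the 15 called genes per direction with the strongest change whose C57BL6/J libraries lay apart from the other 26 (mean of at least 1 CPM), the 8 per direction at 100 CPM or more, the next 15 genes called against every strain, the 3 smallest p of each list, and tested known strain alleles. Other list members are named where called, after their values were seen. Per-library values of the authors' own comparison table were not used. Some genes that these rules name are not reported here.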

Additional observations from a re-analysis of the deposited data

How the results depend on the processing

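Against 1438 calls in the main comparison, 267 were made with the 26 other libraries as 1 group, 754 at an adjusted p below 0.01 and 393 in a test against a minimum fold of 1.5. The first of these takes strain differences among the 9 into the error, and the other 2 are stricter by construction. DESeq2 called 1720, and other scalings and filters, all 14 strains in the fit, or a strain left out gave 1287 to 1662. With 1 library left out at a time the count ran from 761 to 1629, and that of genes called against each strain from 50 to 69, against 65. Of the named calls, 107 were kept with each library left out, and DESeq2 kept all but that of Trim12a. Cyp2b9 reversed to a log2 fold change of −0.065 (adjusted p = 0.874, edgeR) without 129S1/SVIMJ, where it is nearly absent. No other named gene called in the main comparison or in the alternative changed sign. Sign changes of genes called in neither were not counted. Naip5, for example, ran from −0.16 to 0.83 over the left-out libraries. No paired analysis was possible because the replicate numbers are in accession order and a number that titles share belongs to mice of different strains. Depth limits genes under about 1 CPM, where a C57BL6/J library holds few counts.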
